A study of Mus musculus with 6 samples.

Results

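Keratinocyte transglutaminases and the proteins they cross-link into the cornified envelope were followed in keratinocytes of mice with an induced deletion in Lama3, the gene of the alpha chain of laminin 332, the adhesion protein of the basal layer. The 9 genes were Tgm1, Tgm3, Tgm5, Ivl, Lor, Cnfn, Evpl, Ppl and Scel. They were chosen by their known roles in the envelope, with earlier results of these data known. Each was matched by Ensembl identifier, to 9 of the 45513 rows of the deposited count table. All 9 passed the filter on low counts. RNA was sequenced from isolated keratinocytes of 3 LAMA3_KO and 3 control mice. LAMA3_KO mice were Lama3flox/flox and carried K14-CreERT, a tamoxifen-dependent Cre recombinase driven by the keratin 14 promoter of basal keratinocytes. Control mice were Lama3wt/flox with the same K14-CreERT, per the design text, although their genotype label reads wild type. The floxed allele has loxP sites around exons 50 to 53 of Lama3, the background was C57BL/6, and Cre was activated through chow with 400 mg of tamoxifen citrate per kg. The labels give neither the age and sex of the animals nor the time on tamoxifen.

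Total counts per library were between 24192158 and 28473479 in LAMA3_KO and between 20126395 and 25429816 in control. The lowest count of any of the 9 genes in any library was 311. Counting error was not compared with the differences between mice. Lama3 stood at 97.3, 98.9 and 79.2 CPM (reads per gene scaled to library size) in LAMA3_KO libraries 1, 2 and 3, against 141, 142 and 114 CPM in controls 1, 2 and 3 (log2 fold change -0.53, SE 0.14, edgeR's adjusted p = 0.0215), and the call was lost without LAMA3_KO 1, control 1 or control 2 (edgeR's adjusted p from 0.0551 to 0.0620). These counts cover the whole gene, not the deleted exons alone, and laminin protein was not measured. The basal keratin gene Krt5 was abundant in every library, at 7349 ± 1297 CPM in LAMA3_KO and 8174 ± 1364 CPM in control (SD, n = 3 each). Xist outnumbered the Y-linked Ddx3y in LAMA3_KO 1 and 2 and in control 1, and Ddx3y outnumbered Xist in LAMA3_KO 3 and in controls 2 and 3, so the sexes were unequally split between the groups.

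The cornified envelope is the protein shell that replaces the plasma membrane of a keratinocyte as it becomes a dead corneocyte. Transglutaminases are calcium-dependent enzymes that join glutamine and lysine side chains of neighbouring proteins by bonds that proteases do not cut. Envoplakin, periplakin and involucrin are laid down first beneath the membrane, ceramides are then attached to this scaffold, and loricrin and small proline-rich proteins are added as reinforcement in the granular layer. In humans, loss of TGM1 causes lamellar ichthyosis and loss of TGM5 causes acral peeling of the skin.

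Most of the envelope genes were higher in LAMA3_KO. Of the 9 genes 6 rose (Lor, Cnfn, Tgm1, Ivl, Evpl and Ppl), 0 fell and 3 were not called (Tgm3, Scel and Tgm5). A gene was called where the p of edgeR's quasi-likelihood test, adjusted across the 15513 tested genes by the Benjamini-Hochberg method, was below 0.05. Of those 15513 genes, 17.4% were called higher and 18.8% lower. The median log2 fold change, LAMA3_KO over control, was 1.01 over the 9 genes and -0.02 over all genes tested. In the 6 genes that rose, every LAMA3_KO library lay above every control, an arrangement found in 25.2% of all genes tested. The groups lay apart in one direction or the other in 51.7% of all genes tested. The rises ranged from 1.84-fold for Ppl to 10.03-fold for Lor. DESeq2 in place of edgeR also called 6 higher and 0 lower.

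**Figure D1:**
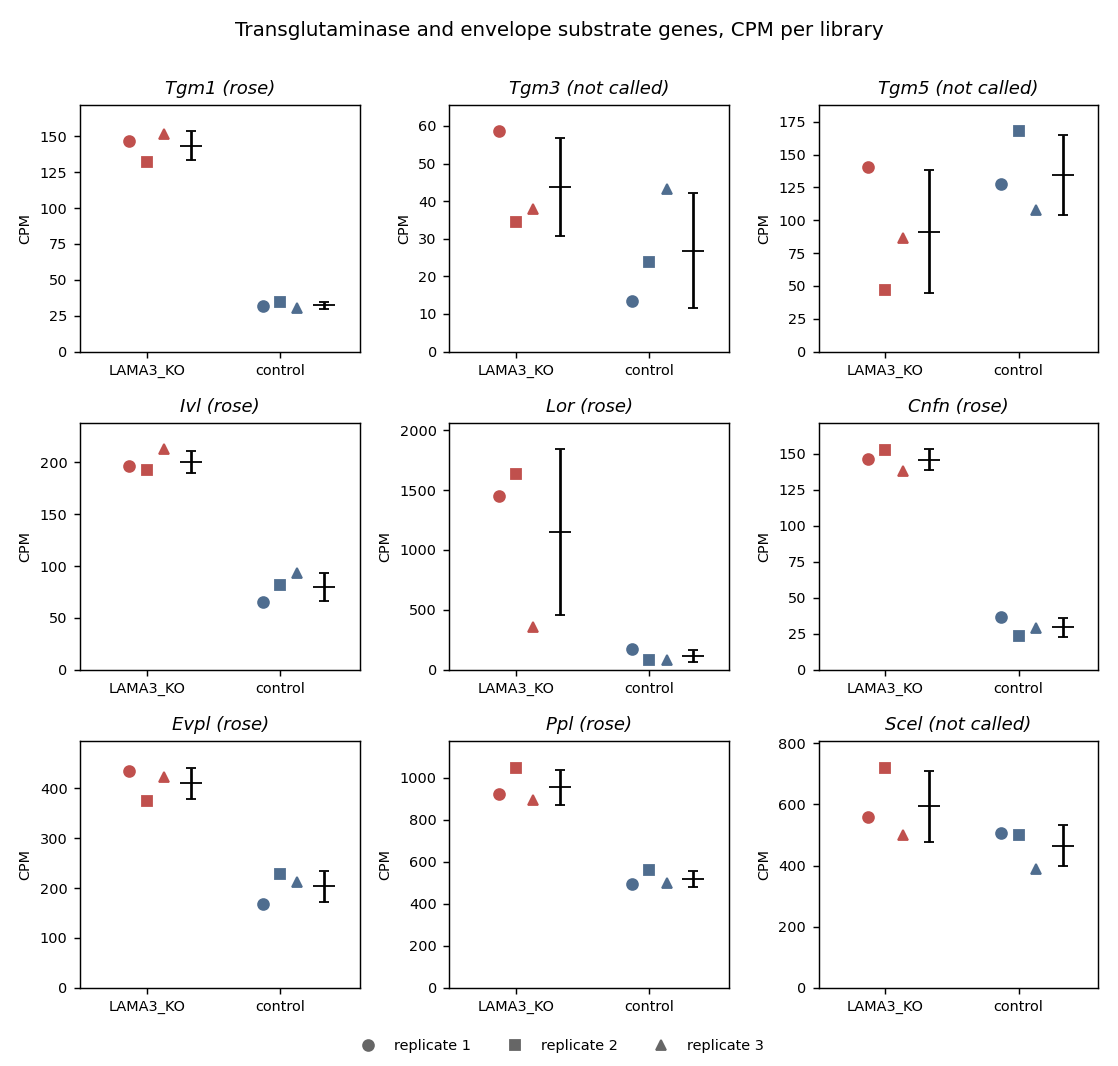
CPM of each of the 9 genes in the 3 LAMA3_KO libraries (red, left) and the 3 control libraries (blue, right); symbols mark replicates, black bars the mean ± SD (n = 3), and each panel has its own scale from 0. The groups are apart in Tgm1, Ivl, Lor, Cnfn, Evpl and Ppl and overlap in Tgm3, Tgm5 and Scel; LAMA3_KO 3 lies at 356 CPM of Lor, below the 1452 and 1636 CPM of LAMA3_KO 1 and 2.

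The promoters of the genes that rose were compared with that of Scel, which was not called, to show which short sequence elements they share. RefSeq (GRCm38.p6) gave windows from 250 bases before to 50 bases after the annotated start for 7 of the 9 genes; Evpl and Ppl had no entry. The upstream of the 2 Tgm1 windows is shown, and the other held none of the motifs described below. Sequences run 5′ to 3′ on the strand of the gene, and capitals mark the letters of motifs searched on both strands. The AP-1 motif was TGAGTCA. For the TATA box the letters searched were TATAAA, and the GC box was taken as CCGCCC. A grainyhead motif, which does not occur in the windows shown, was searched as AACCNGTT. No matches overlap one another in these windows.
Lor, chr3:92083093-92083392, minus strand: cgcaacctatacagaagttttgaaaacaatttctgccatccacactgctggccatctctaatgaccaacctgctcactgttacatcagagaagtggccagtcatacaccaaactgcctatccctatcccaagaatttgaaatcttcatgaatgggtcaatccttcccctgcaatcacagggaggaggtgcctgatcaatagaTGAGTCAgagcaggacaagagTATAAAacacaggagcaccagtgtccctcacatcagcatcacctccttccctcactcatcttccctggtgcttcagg
Ivl, chr3:92573686-92573985, minus strand: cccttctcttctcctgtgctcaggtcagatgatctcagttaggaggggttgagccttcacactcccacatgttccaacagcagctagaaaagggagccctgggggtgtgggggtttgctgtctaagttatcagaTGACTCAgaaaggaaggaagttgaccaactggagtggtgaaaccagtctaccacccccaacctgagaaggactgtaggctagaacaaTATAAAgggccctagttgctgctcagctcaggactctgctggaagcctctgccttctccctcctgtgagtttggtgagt
Cnfn, chr7:25369675-25369974, minus strand: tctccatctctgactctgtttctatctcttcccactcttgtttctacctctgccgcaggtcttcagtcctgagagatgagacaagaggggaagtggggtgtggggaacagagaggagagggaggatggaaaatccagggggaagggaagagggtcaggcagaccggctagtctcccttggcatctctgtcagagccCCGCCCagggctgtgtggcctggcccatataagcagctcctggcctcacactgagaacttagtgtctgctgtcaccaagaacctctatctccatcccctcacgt
Tgm1, chr14:55713443-55713742, minus strand: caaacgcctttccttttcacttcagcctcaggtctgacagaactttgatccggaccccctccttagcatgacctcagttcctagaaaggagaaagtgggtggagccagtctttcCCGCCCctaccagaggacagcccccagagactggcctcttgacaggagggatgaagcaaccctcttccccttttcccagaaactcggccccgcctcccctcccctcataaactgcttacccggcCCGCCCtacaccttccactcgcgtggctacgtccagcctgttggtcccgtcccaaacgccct
Scel, chr14:103513091-103513390, plus strand: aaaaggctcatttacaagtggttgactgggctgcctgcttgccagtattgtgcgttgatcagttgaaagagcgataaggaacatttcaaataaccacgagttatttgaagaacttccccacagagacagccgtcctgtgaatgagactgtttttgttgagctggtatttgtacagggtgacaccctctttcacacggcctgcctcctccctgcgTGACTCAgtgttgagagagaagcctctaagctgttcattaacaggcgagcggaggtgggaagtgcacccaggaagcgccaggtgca

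The AP-1 letters stood in the windows of 3 genes, Lor (first base 48 bases before the start), Ivl (116 bases before) and Scel (36 bases before), and in 5.20% of all 32851 RefSeq windows. Lor and Ivl also held TATAAA, 27 and 29 bases before the start, as did Tgm3 at 28 bases before, against 13.6% of all windows. CCGCCC occurred in Cnfn at 54 bases before the start and in the upstream Tgm1 window at 136 and 12 bases before. It occurred in 35.7% of all windows. AACCNGTT was found only in the Tgm5 window among the 7 genes, against 2.09% of all windows. Genes with the AP-1 letters thus included Lor and Ivl, which rose, and Scel, which was not called. A match of letters describes the sequence and is not evidence of binding.

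Transglutaminase 1, encoded by Tgm1, is the membrane-anchored enzyme that cross-links the early scaffold and attaches ceramides to involucrin. Tgm1 (ENSMUSG00000022218) lies on chromosome 14 from 55700009 to 55713926 on the minus strand of GRCm38. Its level was 146, 132 and 151 CPM in LAMA3_KO libraries 1, 2 and 3, against 31.4, 34.7 and 30.3 CPM in controls 1, 2 and 3. Both groups were tight, with the highest library 1.15 times the lowest in each, and the groups were far apart. The log2 fold change was 2.16 (SE 0.11, edgeR's adjusted p = 0.000226), a 4.46-fold rise, and Tgm1 had the second smallest p of all 15513 genes tested. An antisense gene model, Gm49067, shares 182 exonic bases with Tgm1, and the use of strand in counting is not given in the sources used here.

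Tgm3 and Tgm5, the other transglutaminases of the epidermis, were not called. Tgm3, a soluble enzyme that is activated by proteolysis and also works in the hair follicle, lies on chromosome 2 from 130012349 to 130050399 on the plus strand. It stood at 58.6, 34.6 and 37.9 CPM in LAMA3_KO libraries 1, 2 and 3, against 13.4, 23.8 and 43.4 CPM in controls 1, 2 and 3. Control 3 lay above LAMA3_KO 2 and 3, and the highest control was 3.24 times the lowest. The log2 fold change of Tgm3 was 0.70 (SE 0.41, edgeR's adjusted p = 0.213). Without control 3 it was called, at 1.22 (edgeR's adjusted p = 0.0396), whereas it was 0.38 without control 1 (edgeR's adjusted p = 0.387) and 0.44 without LAMA3_KO 1 (edgeR's adjusted p = 0.476).

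Tgm5, an enzyme of the spinous and granular layers, lies on chromosome 2 from 121046111 to 121085841 on the minus strand, and had the lowest fold change of the 9 genes. Its level was 140.3, 47.1 and 86.2 CPM in LAMA3_KO libraries 1, 2 and 3, against 128, 168 and 108 CPM in controls 1, 2 and 3. LAMA3_KO 2 and 3 lay below every control and LAMA3_KO 1 lay between them. The log2 fold change was -0.56 (SE 0.37, edgeR's adjusted p = 0.261). With 1 library left out it ranged from -1.003 without LAMA3_KO 1 (edgeR's adjusted p = 0.0556) to -0.24 without LAMA3_KO 2 (edgeR's adjusted p = 0.522), and Tgm5 was called in none of these fits.

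The balance of the 3 enzymes was compared per transcript length, as CPM per exonic kilobase. Tgm1 made up 44.1%, 64.2% and 56.8% of the summed level of Tgm1, Tgm3 and Tgm5 in LAMA3_KO libraries 1, 2 and 3, against 18.5%, 15.7% and 17.7% in controls 1, 2 and 3. The share was 55.0 ± 10.1% in LAMA3_KO and 17.3 ± 1.45% in control (SD, n = 3 each), a difference of 37.7 percentage points. The groups did not overlap, and the 2-sided exact permutation p was 0.1, the smallest that 3 against 3 libraries allow. In controls Tgm5 was the most abundant of the 3 enzymes by this measure, at 42.6 ± 9.71 CPM per kilobase beside 10.2 ± 0.727 for Tgm1 and 6.50 ± 3.68 for Tgm3. In LAMA3_KO Tgm1 had the highest mean, at 45.3 ± 3.19, with Tgm5 at 28.9 ± 14.8 and Tgm3 at 10.6 ± 3.15, and the ranges of Tgm1 and Tgm5 overlapped.

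Involucrin and the plakins form the early scaffold under the membrane, and all 3 genes rose. Ivl, involucrin, the glutamine-rich substrate on which cross-linking begins, lies on chromosome 3 from 92570902 to 92573735 on the minus strand and has 2 exons. Its level was 197, 193 and 213 CPM in LAMA3_KO libraries 1, 2 and 3, against 65.6, 81.7 and 92.8 CPM in controls 1, 2 and 3. The lowest LAMA3_KO library lay above the highest control by a wide margin. Ivl rose by 1.33 on the log2 scale (SE 0.15, edgeR's adjusted p = 0.00146).

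Envoplakin (Evpl) and periplakin (Ppl) are plakin family proteins that bind each other and link desmosomes and keratin filaments to the envelope. Evpl, on chromosome 11 from 116220559 to 116238077, was measured at 434, 375 and 422 CPM in LAMA3_KO libraries 1, 2 and 3, against 168, 229 and 213 CPM in controls 1, 2 and 3. Ppl, on chromosome 16 from 5086291 to 5132421, was measured at 921, 1048 and 894 CPM in LAMA3_KO libraries 1, 2 and 3, against 492, 561 and 499 CPM in controls 1, 2 and 3. In both genes the groups did not overlap and each group was narrow. Evpl rose by 1.01 (SE 0.16, edgeR's adjusted p = 0.00412) and Ppl by 0.88 (SE 0.16, edgeR's adjusted p = 0.00647) on the log2 scale. The ratio of Evpl to Ppl in CPM per exonic kilobase was 0.469 ± 0.0714 in LAMA3_KO and 0.423 ± 0.0486 in control (SD, n = 3 each). The log2 ratio differed by 0.14, with overlapping groups and a 2-sided exact permutation p of 0.5.

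Lor, loricrin, the glycine-rich protein that makes up much of the mass of the mature envelope, showed the highest fold change of the 9 genes and the widest spread. Lor lies on chromosome 3 from 92080271 to 92083142 on the minus strand, 488 kb from Ivl in the epidermal differentiation complex, with 19 protein-coding genes starting between them. Its level was 1452, 1636 and 356 CPM in LAMA3_KO libraries 1, 2 and 3, against 175, 84.1 and 83.8 CPM in controls 1, 2 and 3. All LAMA3_KO libraries lay above all controls, yet the highest LAMA3_KO library was 4.59 times the lowest. The log2 fold change was 3.33 (SE 0.60, edgeR's adjusted p = 0.00726). Set against the mean of the controls, Lor was 12.7-fold and 14.3-fold higher in LAMA3_KO 1 and 2 and 3.11-fold higher in LAMA3_KO 3. Within the libraries that expressed Xist the ratio of LAMA3_KO to control was 8.80 for Lor, and within those that expressed Ddx3y it was 4.24, each setting 1 library of one group against 2 of the other. With sex as a covariate the log2 fold change of Lor was 2.61 (edgeR's adjusted p = 0.00165).

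Loricrin was not in step with involucrin. The ratio of Lor to Ivl in CPM per exonic kilobase was 7.97, 9.18 and 1.81 in LAMA3_KO libraries 1, 2 and 3, against 2.89, 1.11 and 0.976 in controls 1, 2 and 3. LAMA3_KO 3 lay below control 1 in this ratio, while its Ivl level was the highest of the 6 libraries. These 2 libraries differed in sex-linked expression, since LAMA3_KO 3 expressed Ddx3y and control 1 Xist. Within the libraries that expressed Xist the ratio was 7.97 and 9.18 in LAMA3_KO 1 and 2 and 2.89 in control 1. Within those that expressed Ddx3y it was 1.81 in LAMA3_KO 3 and 1.11 and 0.976 in controls 2 and 3. The part of sex in this ratio was not tested. The log2 ratio averaged 2.35 ± 1.297 in LAMA3_KO and 0.55 ± 0.85 in control (SD, n = 3 each), and the difference of 1.80 gave a 2-sided exact permutation p of 0.2.

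Cnfn encodes cornifelin, a small cysteine-rich envelope component, and rose with little spread. The gene lies on chromosome 7 from 25367620 to 25369724 on the minus strand. Its level was 146, 153 and 138 CPM in LAMA3_KO libraries 1, 2 and 3, against 36.4, 23.2 and 28.9 CPM in controls 1, 2 and 3. The groups were well apart, and LAMA3_KO 3 did not stand out as it did for Lor. The log2 fold change was 2.30 (SE 0.17, edgeR's adjusted p = 0.000462).

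Scel encodes sciellin, an envelope precursor of stratified epithelia with tandem repeats that carry cross-linking sites, and was not called. The gene lies on chromosome 14 from 103513342 to 103612797 on the plus strand. It stood at 560.4, 721 and 498 CPM in LAMA3_KO libraries 1, 2 and 3, against 505, 501 and 388 CPM in controls 1, 2 and 3. LAMA3_KO 3 lay below controls 1 and 2. The log2 fold change was 0.35 (SE 0.20, edgeR's adjusted p = 0.189).

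**Figure D2:**
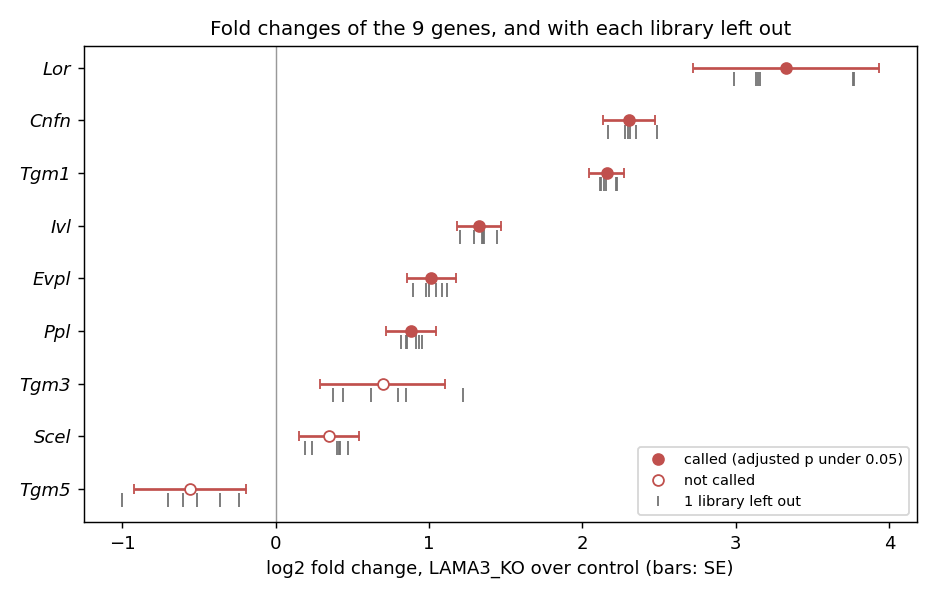
Log2 fold change of each gene, LAMA3_KO over control, with its SE (filled circles called, open circles not called); grey ticks give the value with each of the 6 libraries left out in turn. Tgm1 has an SE of 0.11 at 2.16 and Lor an SE of 0.60 at 3.33; the ticks of Tgm3 reach 1.22 without control 3.

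Per transcript length, the order of the 9 genes differed between the groups. In LAMA3_KO the order was Lor, Scel, Cnfn, Ppl, Ivl, Evpl, Tgm1, Tgm5 and Tgm3, and the ranges over libraries overlapped for the neighbours Lor and Scel, Scel and Cnfn, and Tgm1 and Tgm5. In control it was Scel, Ppl, Lor, Tgm5, Ivl, Cnfn, Evpl, Tgm1 and Tgm3, with separate ranges only between Scel and Ppl and between Evpl and Tgm1. Lor supplied 40.3 ± 17.3% of the summed level of the 9 genes in LAMA3_KO and 12.7 ± 4.95% in control (SD, n = 3 each). Scel supplied 16.6 ± 3.40% in LAMA3_KO and 37.1 ± 2.48% in control. The summed level was 1652, 1796 and 982 CPM per kilobase in LAMA3_KO libraries 1, 2 and 3, against 536, 509 and 451 in controls 1, 2 and 3. The low sum of LAMA3_KO 3 went with its low Lor, which was 200.2 CPM per kilobase there and 919 in LAMA3_KO 2.

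**Figure D3:**
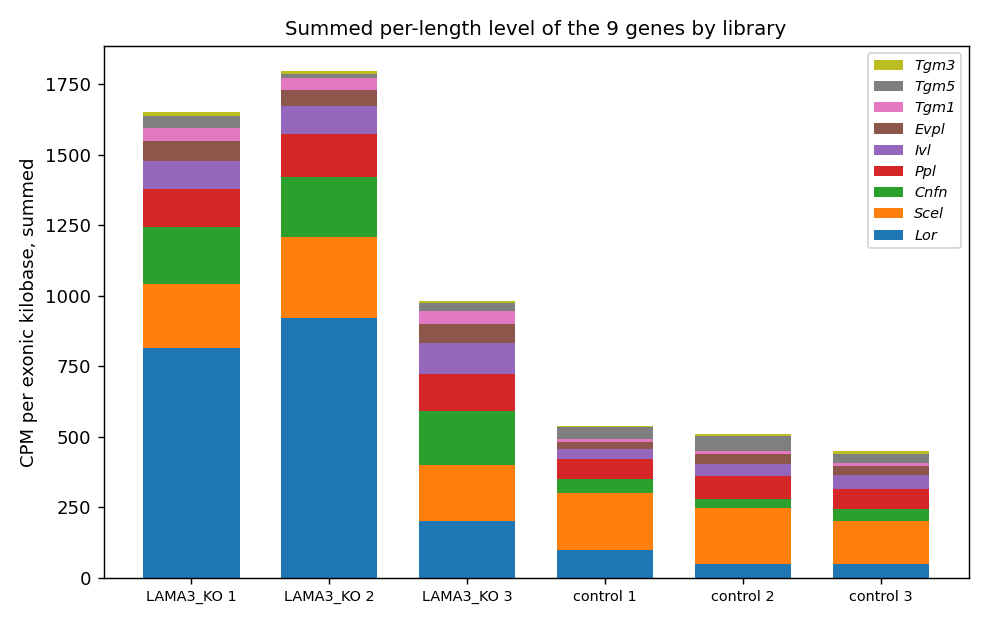
Summed CPM per exonic kilobase of the 9 genes in each library, LAMA3_KO left and control right, with each gene as a coloured block. The sums are 1652, 1796 and 982 in LAMA3_KO and 536, 509 and 451 in control; the Lor block makes up 40.3% of the sum on average in LAMA3_KO and 12.7% in control.

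Likeness between genes was measured as the root mean square difference of log2 CPM over the 6 libraries, after each gene was centred on its own mean, so that a smaller value means a more similar pattern. The most alike pair among the 9 genes was Evpl and Ppl (0.18), followed by Ivl and Evpl (0.19) and by Tgm1 and Cnfn (0.27), and the least alike was Tgm5 and Lor (2.14). Among genes outside the 9 with a mean of at least 5 CPM, Map7d1 was nearest to Tgm1 (0.10), Thop1 to Ivl (0.07), Wfdc5 to Cnfn (0.15), Myo18a to Evpl (0.04), Kank1 to Ppl (0.03) and Aldh6a1 to Scel (0.03). Tgm3 lay nearest to the creatine kinase gene Ckb (0.13). Tgm5 lay nearest to Awat1 (0.18), an enzyme of wax ester synthesis that is on the list of sebaceous gland markers used here. Lor lay nearest to the sphingomyelinase gene Smpd3 (0.33), which stood at 18.9, 23.1 and 8.82 CPM in LAMA3_KO libraries 1, 2 and 3, against 2.20, 1.05 and 1.22 CPM in controls 1, 2 and 3. Smpd3 was lower in LAMA3_KO 3 than in LAMA3_KO 1 and 2, as Lor was. It was picked for its likeness to Lor over these libraries, so this is no separate evidence.

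The rest of the transglutaminase family moved differently from Tgm1. Of 6 other family genes 4 were tested, and 0 rose, 2 fell and 2 were not called, with Tgm4 and F13a1 too low to test. Calls over all tested genes were 17.4% higher and 18.8% lower. Tgm2, tissue transglutaminase, was low throughout, at 1.18, 1.19 and 1.13 CPM in LAMA3_KO libraries 1, 2 and 3, against 3.14, 2.91 and 3.62 CPM in controls 1, 2 and 3, and fell by 1.46 on the log2 scale (SE 0.24, edgeR's adjusted p = 0.00473). Tgm6, which lies next to Tgm3 on chromosome 2 at a distance of 62.0 kb, had 0, 0 and 1 counts in LAMA3_KO libraries 1, 2 and 3, against 18, 60 and 24 counts in controls 1, 2 and 3 (edgeR's adjusted p = 0.00378). It was not tested with a filter of 1 CPM in 3 libraries, which left 1 family gene that fell. Tgm7, which lies 7.72 kb from Tgm5, averaged 3.58 CPM in LAMA3_KO and 8.22 CPM in control and was not called (edgeR's adjusted p = 0.278). With sex as a covariate Tgm7 was called lower, at -1.58 (edgeR's adjusted p = 0.0356), which made 3 family genes that fell. Epb42, a red cell membrane protein of the family, averaged 0.869 CPM in LAMA3_KO and 0.508 CPM in control and was not called (edgeR's adjusted p = 0.312).

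Other proteins of the envelope and of the cornifying cell moved in both directions. Of 26 such genes 24 were tested, and 11 rose, 5 fell and 8 were not called, with a median log2 fold change of 1.19. Over all tested genes the shares were 17.4% called higher and 18.8% called lower. Rptn, repetin, a fused S100 protein of the envelope, averaged 110.2 ± 48.6 CPM in LAMA3_KO and 8.03 ± 1.04 CPM in control (log2 fold change 3.78, SE 0.37, edgeR's adjusted p = 0.00127). Flg2, filaggrin 2, a relative of filaggrin, was called higher at 2.45 (SE 0.63, edgeR's adjusted p = 0.0230). It stood at 993, 1097 and 190 CPM in LAMA3_KO libraries 1, 2 and 3, against 207, 113 and 98.9 CPM in controls 1, 2 and 3. LAMA3_KO 3 thus lay below control 1, which expressed Xist, and above controls 2 and 3, which expressed Ddx3y as LAMA3_KO 3 did. The genes that fell were Sprr4 (-2.26, SE 0.12), a small proline-rich protein, Crnn (-4.55, SE 0.65), cornulin, Tchh (-1.47, SE 0.33), trichohyalin of the inner root sheath, Tchhl1 (-4.74, SE 1.09) and the epidermal keratin gene Krt2 (-5.04, SE 1.35). Sprr4 stood at 8.52 ± 0.311 CPM in LAMA3_KO and 40.7 ± 3.49 CPM in control (edgeR's adjusted p = 0.000226). Without LAMA3_KO 1 the numbers were 6 that rose and 3 that fell, and without a filter on low counts 3 fell. DESeq2 called 7 lower, and upper-quartile factors, a replicate block and no robust estimation each gave 6. Cstb, not called in the main fit, was called lower in each of these fits (-1.25, adjusted p = 0.00466 by DESeq2) and by limma-voom. It was also called lower with sex as a covariate, with a filter of 1 CPM in 3 libraries and without LAMA3_KO 3. Flg, filaggrin, did not pass the filter on low counts, and without that filter it was called higher (5.56, edgeR's adjusted p = 0.000631). This value rests on low counts. Where Flg passed the filter with 1 library left out, it ranged from 5.08 without control 1 to 7.46 without control 3. The call of Flg2 was lost without LAMA3_KO 1, LAMA3_KO 2, control 2 or control 3, that of Tchh without LAMA3_KO 1, and those of both without a filter on low counts. Lce1f and Lce3c, which rose, lost their calls with sex as a covariate and without LAMA3_KO 1, LAMA3_KO 2, control 1 or control 3. Lce1f also lost its call without control 2, with limma-voom, with a replicate block and without a filter on low counts. Krt10 lost its call without LAMA3_KO 1, control 1 or control 3, and Krt1 without LAMA3_KO 1. Krt2 stood at 0.930, 2.16 and 2.50 CPM in LAMA3_KO libraries 1, 2 and 3, against 4.996, 24.3 and 157 CPM in controls 1, 2 and 3. Control 3 lay far above the other controls, and without it the log2 fold change of Krt2 was -2.96. The call of Krt2 was lost without LAMA3_KO 1, 2 or 3, without a filter on low counts, with limma-voom and, at an adjusted p of 0.0501 by edgeR, with sex as a covariate. Flg, Flg2, Tchh, Tchhl1, Cstb, Lce1f, Lce3c, Krt1, Krt2 and Krt10 were picked for mention after their values were seen.

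Other plakins and desmosomal proteins rose in most cases. Of 11 plakins and desmosomal proteins 10 were found and tested, and 8 rose, 0 fell and 2 (Dsg1a and Dsc3) were not called, with a median log2 fold change of 0.76. Among all tested genes 17.4% were called higher and 18.8% lower. Kazn, kazrin, which binds periplakin, averaged 62.2 ± 2.39 CPM in LAMA3_KO and 33.4 ± 2.83 CPM in control (log2 fold change 0.90, SE 0.11, edgeR's adjusted p = 0.00182). Jup, plakoglobin of the desmosomal plaque, rose by 1.27 (SE 0.20, edgeR's adjusted p = 0.00420), and Dsp, desmoplakin, by 1.13 (SE 0.23, edgeR's adjusted p = 0.00941). The desmosomal cadherin genes Dsg1a and Dsc3 had log2 fold changes of 0.45 (SE 0.22) and 0.23 (SE 0.23), and DESeq2 called Dsg1a higher (adjusted p = 0.0437). Dsp, Dsg1a and Dsc3 were picked after their values were seen.

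Genes of the proteolysis that activates transglutaminases or sheds corneocytes included 4 that rose, 1 that fell and 3 that were not called, of 8 tested. Shares over all tested genes were 17.4% called higher and 18.8% called lower. Cst6, cystatin M/E, an inhibitor of the cathepsin and legumain steps that activate transglutaminase 3 in mouse skin, fell to 825, 863 and 1187 CPM in LAMA3_KO libraries 1, 2 and 3, against 3014, 2449 and 2512 CPM in controls 1, 2 and 3 (log2 fold change -1.47, SE 0.22, edgeR's adjusted p = 0.00376). Lgmn, legumain, was called higher at 0.57 (SE 0.16, edgeR's adjusted p = 0.0262), and Ctsl, cathepsin L, at 0.97 (SE 0.31, edgeR's adjusted p = 0.0441). Klk5, a kallikrein protease, rose by 1.03 (SE 0.13, edgeR's adjusted p = 0.00210), and its inhibitor gene Spink5 rose by 2.12 (SE 0.28, edgeR's adjusted p = 0.00234). Klk7, Ctsc and Ctsd had log2 fold changes of 0.53 (SE 0.18), 0.21 (SE 0.26) and -0.15 (SE 0.19). Klk7 was called higher by DESeq2, by limma-voom, with DESeq2 size factors, without a filter on low counts and without LAMA3_KO 2. The number that rose was 2 without LAMA3_KO 1, without control 3 or with upper-quartile factors. Lgmn also lost its call without LAMA3_KO 2, and Ctsl without LAMA3_KO 2 or control 2 or with no filter on low counts. Lgmn, Ctsl, Klk7, Ctsc and Ctsd were picked after their values were seen.

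Genes that make and attach the lipids of the envelope rose in most cases. Of 13 tested 11 rose, 0 fell and 2 (Abhd5 and Elovl4) were not called, with a median log2 fold change of 1.20. Across all tested genes 17.4% were called higher and 18.8% lower. Cers3, the ceramide synthase of barrier lipids, averaged 106 ± 13.5 CPM in LAMA3_KO and 38.7 ± 4.76 CPM in control (log2 fold change 1.45, SE 0.14, edgeR's adjusted p = 0.00113). Alox12b and Aloxe3, lipoxygenases that act in turn on acylceramides, rose by 2.76 (SE 0.26, edgeR's adjusted p = 0.00108) and 2.04 (SE 0.23, edgeR's adjusted p = 0.00168). Sdr9c7, a dehydrogenase of the same route, rose by 2.15 (SE 0.25, edgeR's adjusted p = 0.00172). Abhd5 and Elovl4 had log2 fold changes of 0.21 (SE 0.14) and 0.06 (SE 0.24). Ephx3 was near the threshold, at 0.55 (edgeR's adjusted p = 0.0487). Its call was lost with limma-voom, with sex as a covariate, with upper-quartile factors, and without LAMA3_KO 1, LAMA3_KO 3 or any 1 control. Aloxe3, Sdr9c7, Abhd5, Elovl4 and Ephx3 were picked after their values were seen.

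Among 22 transcription factors known to act on envelope genes 9 rose, 0 fell and 13 were not called, with a median log2 fold change of 0.33. Calls among all tested genes were 17.4% higher and 18.8% lower. Grhl3, a grainyhead factor required for the mouse skin barrier, stood at 164, 154 and 154 CPM in LAMA3_KO libraries 1, 2 and 3, against 76.8, 87.5 and 93.4 CPM in controls 1, 2 and 3 (log2 fold change 0.87, SE 0.11, edgeR's adjusted p = 0.00232). Cebpa rose by 0.98 (SE 0.16, edgeR's adjusted p = 0.00427). Without LAMA3_KO 1 the number that rose was 5. With sex as a covariate or with upper-quartile factors 1 factor, Gata3, was called lower.

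**Figure D4:**
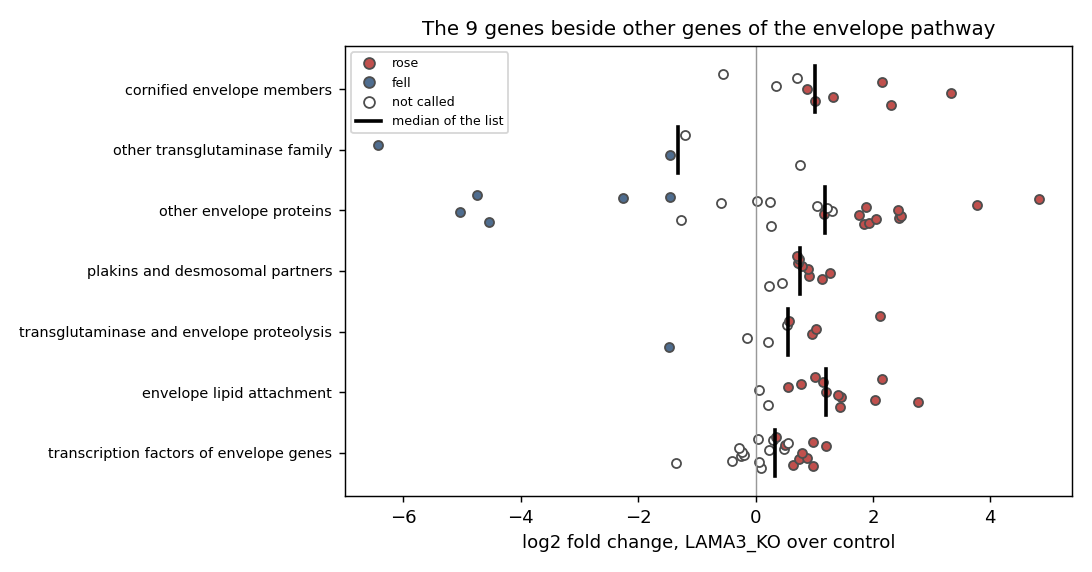
Log2 fold change, LAMA3_KO over control, of each tested gene of the 9-gene set (top row) and of 6 other lists of the envelope pathway; red circles rose, blue circles fell, open circles were not called, and black bars are the median of the list. The medians are 1.01 for the 9 genes, 1.20 for envelope lipid attachment, 0.76 for plakins and desmosomal partners and -1.33 for the other transglutaminases.

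Markers of other cells moved in the same libraries. Among all 15513 tested genes, 17.4% were called higher and 18.8% lower, and 26.5% had every LAMA3_KO library below every control. In bulk RNA, fewer cells of a type and less RNA per cell cannot be told apart. Summed over each list, markers of inner root sheath and hair shaft were at 21.0 to 26.9 CPM in LAMA3_KO and 88.2 to 316 CPM in control, with 13 of 15 tested lower, and Krt71, its most abundant gene, at 0.478 ± 0.170 CPM in LAMA3_KO and 54.8 ± 38.8 CPM in control. Sebaceous gland markers were at 200.04 to 301 CPM in LAMA3_KO and 613 to 761 CPM in control (6 of 9 lower), with Mgst1 at 62.2 ± 13.6 CPM in LAMA3_KO and 248 ± 60.9 CPM in control. T cell markers were at 126 to 153 CPM in LAMA3_KO and 208 to 416 CPM in control (8 of 9 lower), although the most abundant, Trbc2, was not called (54.0 ± 11.3 CPM in LAMA3_KO and 58.8 ± 15.7 CPM in control). Melanocyte markers were at 12.1 to 24.5 CPM in LAMA3_KO and 55.3 to 192 CPM in control (6 of 6 lower, Dct at 7.31 ± 3.29 CPM in LAMA3_KO and 69.2 ± 35.2 CPM in control), and erythroid markers at 1.61 to 3.00 CPM in LAMA3_KO and 11.7 to 17.8 CPM in control (2 of 3 lower, Hbb-bs at 0.3066 ± 0.3004 CPM in LAMA3_KO and 7.82 ± 4.17 CPM in control).

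Neutrophil markers were at 9.42 to 31.9 CPM in LAMA3_KO and 0.431 to 2.04 CPM in control, nearly all from Cxcr2 (21.5 ± 11.4 CPM in LAMA3_KO and 0.888 ± 0.869 CPM in control), with the defining genes Ly6g and Elane at 0 counts in all 6 libraries. Summed basal keratinocyte markers overlapped, at 15354 to 21024 CPM in LAMA3_KO and 16271 to 22609 CPM in control, with 2 of 7 higher and 1 lower. The sums also overlapped for 3 other lists. Macrophage and Langerhans markers were at 567 to 709 CPM in LAMA3_KO and 517 to 909 CPM in control (Cd74 at 262 ± 38.7 CPM in LAMA3_KO and 338 ± 139 CPM in control). Fibroblast markers were at 35.4 to 46.1 CPM in LAMA3_KO and 28.3 to 89.5 CPM in control (Col3a1 at 13.4 ± 3.44 CPM in LAMA3_KO and 18.4 ± 14.5 CPM in control). Muscle markers were at 3.30 to 8.86 CPM in LAMA3_KO and 5.30 to 7.86 CPM in control (Mylpf at 2.99 ± 0.308 CPM in LAMA3_KO and 4.03 ± 0.515 CPM in control). The mitochondrial share of counts was 2.53% to 4.32% in LAMA3_KO and 4.87% to 9.96% in control. The part of these differences in the rise of the envelope genes was not tested.

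**Figure D5:**
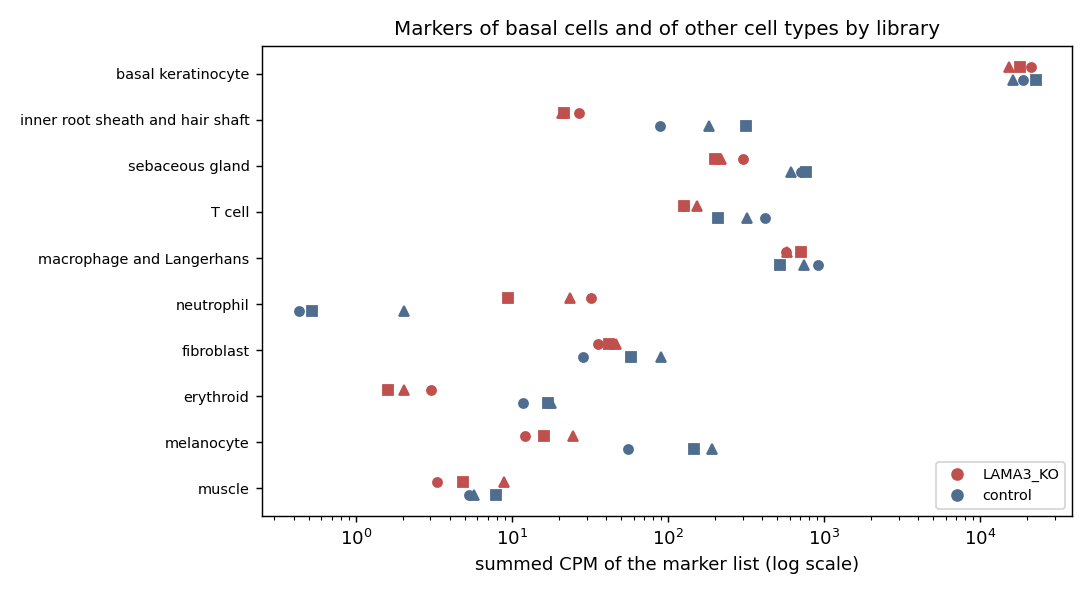
Summed CPM of each marker list per library on a log scale, with LAMA3_KO (red) above control (blue) in each row; circles, squares and triangles are replicates 1, 2 and 3. Of the 10 lists 5 lie wholly lower in LAMA3_KO (hair, sebaceous gland, T cell, erythroid and melanocyte). The neutrophil list, nearly all from its 1 tested gene Cxcr2, lies wholly higher. Taken singly, 26.5% of all tested genes lie wholly lower and 25.2% wholly higher. The basal keratinocyte sums overlap at 15354 to 21024 CPM in LAMA3_KO and 16271 to 22609 CPM in control.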

How the data were processed

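The data were deposited by the authors as 1 table of raw counts per Ensembl gene, with 1 column per library, as the file headers show. The build was GRCm38 and the tools were featureCounts 1.4.6, TopHat 1.3.3 and Cuffdiff 1.3.0, as listed in the submitters' processing notes; their settings, the annotation, the use of strand and the treatment of multi-mapping reads are not given in the sources used here. Symbols, positions and exon lengths came from GENCODE M21 (GRCm38). Of 45513 identifiers 44585 received a symbol; the others held at most 0.156% of a library and stayed in.

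From the deposited counts, edgeR 4.0.16 in R 4.3.3 fitted all 6 libraries by group with TMM scaling, filterByExpr and robust quasi-likelihood tests. SE is the absolute log2 fold change over the square root of F. CPM uses TMM-scaled totals and CPM per kilobase divides it by the union of exons. Single values per library were compared by 2-sided exact permutation tests with scipy 1.17.1. On counts simulated for this comparison (15303 genes), the median log2 fold change was -2.01, -0.99, 1.06 and 2.03 for genes given -2, -1, 1 and 2, of which 43 of 50, 30 of 49, 28 of 50 and 41 of 50 were called, as were 12 of 15104 unchanged genes. Far fewer genes were changed in the simulation than the 36.2% called in the data. The adjusted p depends on that share, so the simulated call rates do not carry over to the real fit. DESeq2 1.42.0 and limma-voom (limma 3.58.1) were alternatives.

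The genes and the lists were chosen with earlier results of these data known. The lists had 176 entries, 174 of them present in the table. Named genes were the 9, Lama3, the 2 called genes of smallest p on each pathway list with up to 2 called in the minority direction, the most abundant gene of each marker list, and the gene most similar to each of the 9. Others are said to be picked after their values were seen, as were Epb42 and Tgm7.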

Additional observations from a re-analysis of the deposited data

How the results depend on the processing

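The 9 genes were refitted under 16 alternatives (other scalings, filters and tools, no robust estimation, a replicate block, a sex covariate, omission of each library, and an adjusted p under 0.01). All 6 genes that rose kept their direction and call in each of them, and none of the 9 was called lower. Tgm3, called without control 3, made 7 higher. Of the 144 values obtained 143 kept direction and side of the threshold. Lor ranged from 2.61 (sex as a covariate) to 3.77 (without control 1) on the log2 scale, and its adjusted p reached 0.0456 without a filter on low counts.

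Over all genes, 2693 were higher and 2919 lower (48.0% higher). Upper-quartile factors gave 1756 and 3988 (30.6% higher) and shifted the median log2 fold change by -0.15; the 6 genes still rose, Ppl by 0.73 and Tgm1 by 2.01. An adjusted p under 0.01 gave 1115 higher and 1009 lower. The genes that rose were then 6 other envelope proteins (2 fell), 5 plakins and desmosomal proteins, 2 proteolysis genes and 5 transcription factors. With 1 library left out, 1586 to 2754 were higher and 1714 to 2771 lower; without control 3 the numbers were 1586 and 1714, without LAMA3_KO 1 they were 1681 and 1735, and without LAMA3_KO 2 1750 were lower.

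The replicate block gave 6 of the 9 genes higher and 0 lower, and 2422 and 2701 over all genes. Deviations of same-numbered libraries correlated over genes at -0.11, -0.10 and 0.42, so the numbers were not taken to pair the mice.

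Log2 values of 5 genes that were not called changed sign. With 1 library left out, Trbc2 ranged from -0.32 to 0.029, Col3a1 from -0.88 to 0.35, Tgm7 from -1.86 to 0.044, Epb42 from -0.0091 to 1.124 and Elovl4 from -0.15 to 0.24. Col3a1 was 0.12 with sex as a covariate and Elovl4 -0.089 with upper-quartile factors. The cause was not tested. Transcript length in place of the union of exons left the share of Tgm1 and the ratios on the same side; with 1 library left out the share differed by 33.1 to 43.2 percentage points, the log2 Lor to Ivl ratio by 1.38 to 2.55 and the log2 Evpl to Ppl ratio by 0.04 to 0.28. Depth limits the values of Crnn, Tgm6 and Tchhl1, which had 5 counts or fewer in each LAMA3_KO library. It also limits those of Flg, which did not pass the filter on low counts.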
